A study of Rattus norvegicus with 20 samples.

Results

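The genes described here are the core genes of the circadian clock: Arntl, Clock, Per1, Per2, Per3, Cry1, Cry2, Nr1d1, Nr1d2 and Dbp. They were taken by symbol from the hippocampal RNAseq tables, and 10 of 10 were found among the 17168 genes of the tables. Messenger RNA was measured in 20 female rats at 4 months of age, with 1 library per rat. The genotype comparison held 5 wild-type not treated (WTNT) rats and 5 transgenic-AD not treated (TGNT) rats. The treatment comparison held 4 other TGNT rats and 6 transgenic-AD treated (TGTR) rats, which received diazoxide (DZ) together with dibenzoylmethane (DIB) in chow from day 52 of life, while untreated rats ate plain chow. All TGNT and TGTR rats were TgF344-AD rats, which carry human APPsw and PS1-ΔE9 under the prion promoter, so the treatment comparison has no wild-type group. The study tested rats in a radial arm maze at 4 months, under food restriction, and took some of them for sequencing at that point. The rats lived under a light/dark cycle, but the hour at which each brain was collected is not given in the sources used here. The labels call the tissue the left hippocampus and the methods of the study the right.

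The clock is a loop of transcription and repression that runs in nearly every cell. The proteins of Arntl (also called Bmal1) and Clock bind E-boxes as a pair and switch on the Per, Cry and Nr1d genes and Dbp. The Per and Cry proteins then repress that pair, the REV-ERB receptors made by Nr1d1 and Nr1d2 repress Arntl at RORE elements, and Dbp drives further genes through D-boxes. In tissues with a running clock, Arntl peaks at about the opposite time of day to Nr1d1, Dbp and the Per genes. A group of rats whose clock stood at another time could therefore differ in Arntl in the opposite direction to Nr1d1, Dbp and the Per genes.

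Promoter windows of 250 bases upstream of a gene start were available from RefSeq (build GRCr8) for 9 of the 10 genes, with a second window for Clock and for Nr1d1. Cry1 had no entry. The windows of Arntl, Per2 and Nr1d1 are printed 5′ to 3′ on the strand of the gene because they hold letters of the 3 kinds of element that the loop turns on. Capitals mark TAGGTCA (the RORE core) in Arntl, TTATGTAA (a D-box, searched as TTATGNAA) and CACGTT (an E-box variant) in Per2, AACGTG (the same variant read on the other strand) in the first Nr1d1 window, and CACGTG (the E-box) in the second.
Arntl, chr1:176766078-176766327, + strand: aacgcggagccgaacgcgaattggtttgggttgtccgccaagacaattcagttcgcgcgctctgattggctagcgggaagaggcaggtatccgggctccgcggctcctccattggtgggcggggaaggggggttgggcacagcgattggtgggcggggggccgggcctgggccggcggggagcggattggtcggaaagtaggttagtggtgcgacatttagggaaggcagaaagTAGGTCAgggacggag
Per2, chr9:99496994-99497243, - strand: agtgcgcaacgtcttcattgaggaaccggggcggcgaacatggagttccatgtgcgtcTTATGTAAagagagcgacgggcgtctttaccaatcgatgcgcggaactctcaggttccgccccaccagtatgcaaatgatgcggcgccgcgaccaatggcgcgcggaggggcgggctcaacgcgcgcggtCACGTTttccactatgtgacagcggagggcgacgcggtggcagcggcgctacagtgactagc
Nr1d1 first window, chr10:84231813-84232062, - strand: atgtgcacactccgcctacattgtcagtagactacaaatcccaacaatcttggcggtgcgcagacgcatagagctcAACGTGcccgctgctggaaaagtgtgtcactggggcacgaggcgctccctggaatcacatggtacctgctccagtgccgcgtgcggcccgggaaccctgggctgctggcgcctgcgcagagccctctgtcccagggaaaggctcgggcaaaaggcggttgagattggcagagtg
Nr1d1 second window, chr10:84229455-84229704, - strand: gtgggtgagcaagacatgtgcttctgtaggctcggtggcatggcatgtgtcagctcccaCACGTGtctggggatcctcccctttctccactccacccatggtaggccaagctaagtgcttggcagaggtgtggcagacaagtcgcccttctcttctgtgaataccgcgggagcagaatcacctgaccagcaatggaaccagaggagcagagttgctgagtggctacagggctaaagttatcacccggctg
Both strands were searched. The RORE core of Arntl lay at bases -16 to -10 counted from the gene start, and 2.26% of 33469 RefSeq promoter windows held one. In Per2 the E-box variant lay at -62 to -57 and the D-box at -192 to -185, and these letters occurred in 4.07% and 3.28% of windows. The first Nr1d1 window held the variant at -174 to -169 and the second the E-box at -191 to -186, which 5.59% of windows held. Cry2 also held the variant, at -212 to -207. A CRE (TGACGTCA), present in 1.59% of windows, was found in none of these genes, and the windows of Clock, Per1, Per3, Nr1d2 and Dbp held none of the searched letters. A match describes the letters only, and binding was not measured.

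The deposited estimated counts summed to 5848458 to 9926088 per rat in the genotype table and 9215039 to 14175594 per rat in the treatment table. Levels below are the authors' RPM, reads scaled to library size with factors from the trimmed mean of M values (TMM). At this depth each of the 10 genes was well above the count floor: the lowest estimated count was 81 reads, for Per3 in WTNT replicate 5, and all 10 had a mean of at least 5 RPM in both tables. Cry2 had a whole-number estimate in 0 of 20 rats and Nr1d1 in 1 of 10 rats of the genotype table and 0 of 10 of the treatment table. Their reads were therefore divided with other features. In the GRCr8 gene table Nr1d1 overlaps Thra and Cry2 overlaps a long non-coding RNA, so their values are less certain than those of Arntl, Per1, Per3, Nr1d2 and Dbp, which overlap no other gene there. Clock, Per2 and Cry1 also overlap other loci, with whole-number estimates in most or all rats for Per2 and Cry1 and in 6 and 4 of 10 rats for Clock. App checked the genotype labels, at 1101 ± 47.5 RPM (SD, n = 5) in WTNT and 2187 ± 122 RPM (SD, n = 5) in TGNT rats, without overlap. In TGTR replicate 5 the mean log2 level of 7 choroid plexus markers was 5.89, and in TGTR replicate 6 it was 2.62. The remaining TGTR rats stood at -0.12 to 0.40 and the TGNT rats of that table at 0.31 to 0.93. Nr1d2, Per2, Per3, Cry1 and the marker lists of the treatment comparison are given with and without replicate 5. Replicate 6 stays in both settings.

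Between TGNT and WTNT rats, 0 of the 10 clock genes were called, a call being a fold change of 1.5 or more together with a Benjamini-Hochberg adjusted p under 0.05 in edgeR's quasi-likelihood test, where 0.0116% of all genes did. By sign, 5 had a higher and 5 a lower mean in TGNT, and 0 of 10 separated the rats of the groups completely, against 0.276% of genes of at least 5 RPM that did so upwards and 0.328% downwards. Only Per1 had an unadjusted p under 0.05, and it was lower. Among genes of at least 5 RPM, 1.88% were lower and 1.86% higher at that threshold. The median log2 fold change of the 10 genes was -0.02 against 0.0037 over all genes of at least 5 RPM. No interval reached a fold change of 1.5, and the 95% interval that reached farthest from 0, of Per1, extended to 1.40-fold. Bulk RNA cannot tell fewer cells of a type from less RNA per cell.

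Arntl, the DNA-binding activator that carries most of the rhythm of the pair, stood at 43.9, 53.8, 48.3, 52.1 and 45.1 RPM in the 5 WTNT rats and at 40.4, 49.2, 42.2, 46.8 and 44.9 RPM in the 5 TGNT rats. The ranges overlapped over most of their length. The log2 fold change was -0.12 ± 0.0803 (SE), with a 95% interval of -0.29 to 0.05. Clock, its partner, was at 225 ± 14.1 RPM in WTNT and 210 ± 21.1 RPM in TGNT rats (SD, n = 5 each), a log2 fold change of -0.09. Both activators thus had slightly lower means in the transgenic rats. In log2 units the difference was about the within-group SD for Arntl (0.12) and below it for Clock (0.12).

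Per1, the repressor of the loop that is also an immediate early gene, was at 48.2, 35.9, 35.8, 37.7 and 37.6 RPM in WTNT rats and at 38.1, 34.1, 32.8, 27.6 and 29.0 RPM in TGNT rats. Replicate 1 of WTNT stood above all other rats, and TGNT replicate 1 was higher than 4 of the 5 WTNT rats. The log2 fold change was -0.26 ± 0.103 (SE), with a 95% interval of -0.48 to -0.04. Its unadjusted p was 0.0226 and its adjusted p was 1 in edgeR's quasi-likelihood test. An exact permutation test of the mean RPM gave p = 0.0476 (two-sided, unadjusted), where 0.00794 is the smallest value that 5 against 5 rats allow. Without WTNT replicate 1 the log2 fold change of Per1 was -0.18, with an unadjusted edgeR p of 0.0743. Leaving out TGNT replicate 4 gave a log2 fold change of -0.22 with an unadjusted p of 0.0561 in edgeR's quasi-likelihood test. Leaving out TGNT replicate 5 gave -0.23 with an unadjusted p of 0.0524 in the same edgeR test. Other omissions made the Per1 difference larger in that test. It was -0.32 (unadjusted p = 0.00736) without TGNT replicate 1 and -0.30 (unadjusted p = 0.0138) without WTNT replicate 3. Whichever rat was omitted, Per1 stayed lower in TGNT rats, at -0.32 to -0.18.

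Per1 is known to answer to glucocorticoids and to neuronal activity, and lists of other genes with such a response had lower mean levels in TGNT rats. Of 10 glucocorticoid-driven genes, 10 had lower means in TGNT rats (median log2 fold change -0.22), and 2 were lower at an unadjusted p under 0.05. Cdkn1a, Klf9 and Sgk1 had the lowest p of the list, with log2 fold changes of -0.74, -0.25 and -0.34. The mean log2 level of that list was 5.03 to 5.37 in WTNT and 4.87 to 5.00 in TGNT rats, without overlap. How often other lists of this size separate the groups was not tested. The level was highest in WTNT replicate 1, the rat with the highest Per1, but other rats did not keep this order. TGNT replicate 1, with the highest Per1 of its group at 38.1 RPM, had a level of 4.89. WTNT replicate 2, with a Per1 of 35.9 RPM, had a level of 5.22. Of 12 activity-driven genes, 9 were lower and 3 higher, with a median of -0.31 and a mean level of 3.91 to 4.29 in WTNT and 3.61 to 4.17 in TGNT rats. At an unadjusted p under 0.05 in the quasi-likelihood test, 5 were lower and 1, Dusp1, was higher (log2 fold change 0.49). Egr2, Nr4a1 and Egr1 had the lowest p of that list, with log2 fold changes of -1.01, -0.46 and -0.58, and Egr2 is a gene the study itself picked from these rats. In the quasi-likelihood test 0 genes of either list were called, while edgeR's exact test, which called 4 genes of the whole table against 2, called Egr2 (adjusted p = 0.0226). The part of these signals in the Per1 values was not tested.

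The other Per genes leaned the opposite way. Per2 ranged from 35.5 to 51.6 RPM in WTNT rats and from 39.1 to 46.1 RPM in TGNT rats (log2 fold change 0.07, 95% interval -0.15 to 0.28). Per3, the family member least needed for rhythm, was at 18.1, 15.5, 12.3, 18.3 and 12.9 RPM in WTNT and 17.2, 17.9, 17.9, 16.9 and 17.4 RPM in TGNT rats. The WTNT range took in all TGNT values, with 3 of the 5 WTNT rats below every TGNT rat, and the log2 fold change was 0.19 ± 0.119 (SE). The cryptochromes, which complete the repressor complex, both had lower means in TGNT rats. Cry1 was at 16.7 ± 1.86 RPM in WTNT and 15.6 ± 2.65 RPM in TGNT rats (SD, n = 5 each). Cry2 was at 182, 182, 168, 205 and 171 RPM in WTNT and 163, 176, 167, 165 and 156 RPM in TGNT rats. Its ranges overlapped, its log2 fold change was -0.13 ± 0.0653 (SE), and its unadjusted p was 0.0678 with edgeR and 0.0476 in the exact permutation test of RPM.

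Nr1d1, which codes for REV-ERBα, was at 44.1, 49.9, 61.2, 54.1 and 56.2 RPM in WTNT and at 61.3, 56.4, 58.1, 58.3 and 58.9 RPM in TGNT rats. The TGNT rats lay close together at the upper end of the WTNT range, with a coefficient of variation of 3.03% against 12.2%. The log2 fold change was 0.15, with a 95% interval of -0.02 to 0.32, and it was 0.084 without WTNT replicate 1, the lowest rat. Nr1d2, which codes for REV-ERBβ, was at 133 ± 14.8 RPM in WTNT and 138 ± 8.37 RPM in TGNT rats (SD, n = 5 each; log2 fold change 0.05). Dbp, the output factor that swings most widely in many tissues, was at 30.0, 32.9, 38.8, 33.1 and 42.4 RPM in WTNT and 49.9, 42.4, 33.5, 40.6 and 37.1 RPM in TGNT rats. Only TGNT replicate 1 stood clearly above the WTNT range. The log2 fold change of Dbp was 0.20 ± 0.113 (SE), with a 95% interval of -0.04 to 0.44. Without TGNT replicate 1 the log2 fold change of Dbp was 0.12.

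**Figure D1:**
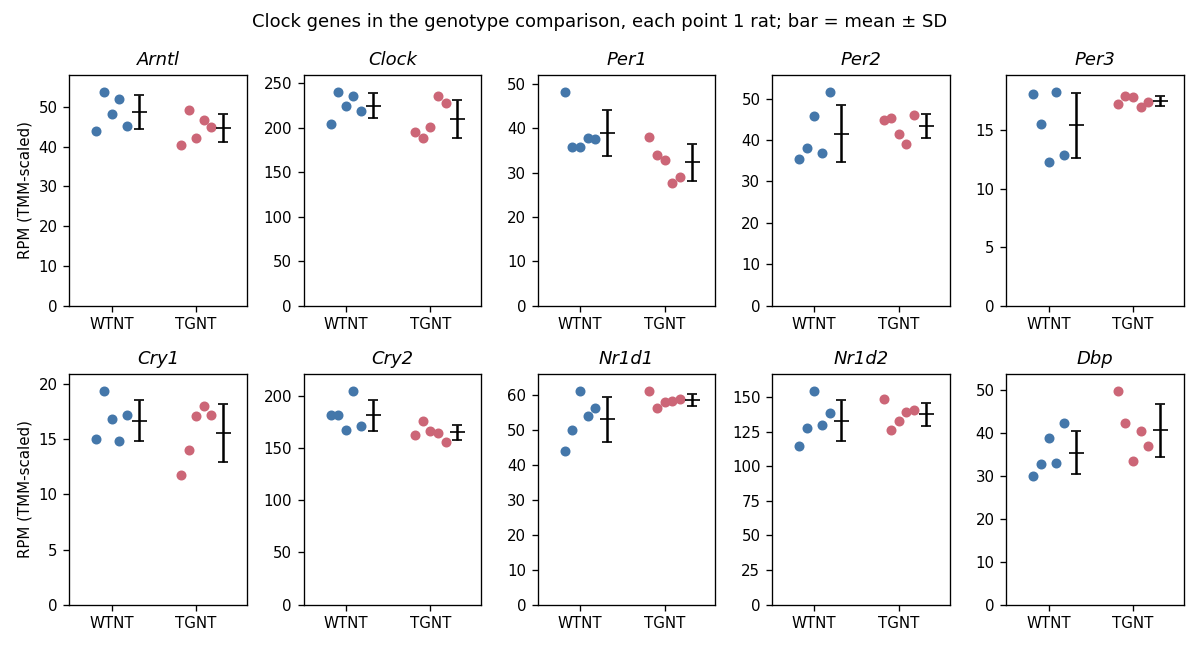
Levels of the 10 clock genes in the genotype comparison, in TMM-scaled RPM on axes that start at 0; each point is 1 rat and the bar beside each group is the mean ± SD. The groups overlap in all 10 panels, and the single WTNT point of Per1 at 48.2 RPM stands above the rest.

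Between TGTR and TGNT rats, 0 of the 10 clock genes were called in edgeR's quasi-likelihood test, where 0% of all genes were (0 of 17168). In that comparison 843 genes had an unadjusted p under 0.05, DESeq2 called 3 genes and edgeR's exact test 4, none of them a clock gene. By sign, 7 of the 10 clock genes had a higher and 3 a lower mean in TGTR. Their median log2 fold change was 0.10 against -5.4e-05 over all genes of at least 5 RPM. Only Nr1d2 had an unadjusted p under 0.05, and it was higher, as were 4.14% of genes of at least 5 RPM, while 2.37% were lower. The groups overlapped for 10 of 10 clock genes, against 0.824% of genes that separated upwards and 0.656% downwards. The 95% interval that reached farthest from 0, of Per2, extended to 1.30-fold. The lowest adjusted p of the 10 was 0.99.

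Nr1d2 was at 107, 94.3, 101 and 94.7 RPM in the 4 TGNT rats and at 96.4 (lowest), 109 (median) and 129 (highest) RPM in the 6 TGTR rats. Of the TGTR rats, 5 exceeded every TGNT rat and replicate 1 lay among them. The log2 fold change was 0.16 ± 0.0706 (SE), with a 95% interval of 0.0045 to 0.31, an unadjusted p of 0.0445 and an adjusted p of 0.99 in edgeR's quasi-likelihood test. The highest value came from TGTR replicate 5, the rat with the highest level of choroid plexus transcripts. Without it the log2 fold change of Nr1d2 was 0.11 with an unadjusted edgeR p of 0.0740. That rat also had the highest Clock, Per3, Cry1 and Cry2 of its group, at 148, 37.4, 15.8 and 186 RPM. The part of choroid plexus RNA in these values was not tested.

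Nr1d1 was at 103, 98.8, 93.3 and 89.5 RPM in TGNT rats and at 94.7 (lowest), 105 (median) and 112 (highest) RPM in TGTR rats. Its log2 fold change of 0.12 (95% interval -0.02 to 0.26) had the same sign as that of Nr1d2. Both REV-ERB genes repress Arntl in the loop, and Arntl had a higher mean too. Arntl was at 25.9, 27.2, 28.8 and 34.5 RPM in TGNT rats and at 29.2 (lowest), 30.5 (median) and 35.3 (highest) RPM in TGTR rats, a log2 fold change of 0.11 ± 0.083 (SE). Clock was at 130 ± 6.00 RPM in TGNT (SD, n = 4) and 138 ± 6.70 RPM in TGTR rats (SD, n = 6), with a log2 fold change of 0.10. Leaving out each rat in turn moved the log2 fold change of Clock between 0.061 and 0.11. The means of the activators and the REV-ERB genes thus differed with the same sign, though none of these genes was called. The bearing of this on the clock was not tested. Without TGNT replicate 4, the highest untreated rat for Arntl, the log2 fold change of Arntl was 0.20, with an unadjusted edgeR p of 0.0215.

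Among the repressors, Per1 was at 72.4, 70.8, 64.7 and 63.2 RPM in TGNT rats and at 61.9 (lowest), 62.7 (median) and 80.6 (highest) RPM in TGTR rats. A single TGTR rat, replicate 2, carried the upper end, and the others lay at or near the lowest TGNT rats. The log2 fold change was -0.04, with a 95% interval of -0.20 to 0.13, and without TGTR replicate 2 it was -0.10, with an unadjusted edgeR p of 0.0701. Per2 varied most from rat to rat, at 77.0, 58.5, 51.3 and 50.6 RPM in TGNT rats and 54.3 (lowest), 60.9 (median) and 75.9 (highest) RPM in TGTR rats, with a log2 fold change of 0.10 (95% interval -0.18 to 0.38). Without TGNT replicate 1, its highest untreated rat, the log2 fold change of Per2 was 0.25 with an unadjusted edgeR p of 0.0440, and without TGNT replicate 4 it was 0.026. Its within-group SD was larger than that of 88.7% of genes of at least 5 RPM. Per3 and Cry2 had log2 fold changes of -0.03 and -0.04, and Cry1 of 0.14. Without TGTR replicate 5 those of Per2, Per3 and Cry1 were 0.052, -0.081 and 0.10. The sign of the Per1 and Per3 differences turned when libraries were scaled by their size only, to 0.0015 and 0.015. Dbp was at 109, 96.6, 89.5 and 96.9 RPM in TGNT rats and 88.02 (lowest), 102 (median) and 109 (highest) RPM in TGTR rats, almost the same span, with a log2 fold change of 0.04 ± 0.0682 (SE).

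The activity-driven list had a higher mean level in TGTR rats, with overlapping ranges, while the mean of Per1 was not higher. Of its 12 genes, 12 had a higher mean, with a median log2 fold change of 0.40 and 7 at an unadjusted p under 0.05, and its mean level was 3.75 to 4.07 in TGNT and 3.88 to 4.68 in TGTR rats. The lowest p belonged to Egr4, Egr2 and Dusp1, with log2 fold changes of 0.41, 0.85 and 0.60, and the lowest adjusted p among them was 0.954 with edgeR. TGTR replicate 3 had the highest level of that list, at 4.68, and a Per1 of 62.6 RPM. Of the glucocorticoid-driven genes, 3 were higher and 7 lower, with a median of -0.02, and Fkbp5 alone had an unadjusted p under 0.05 (log2 fold change -0.28). Next in order of p were Cdkn1a and Sgk1, with log2 fold changes of 0.41 and -0.13, so that the sign of Cdkn1a was the opposite of that in the genotype comparison, a contrast that was not tested. Without TGTR replicate 5 the medians of the activity and glucocorticoid lists were 0.44 and -0.04. The levels of the glucocorticoid list overlapped, at 5.04 to 5.16 in TGNT and 4.99 to 5.17 in TGTR rats.

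**Figure D2:**
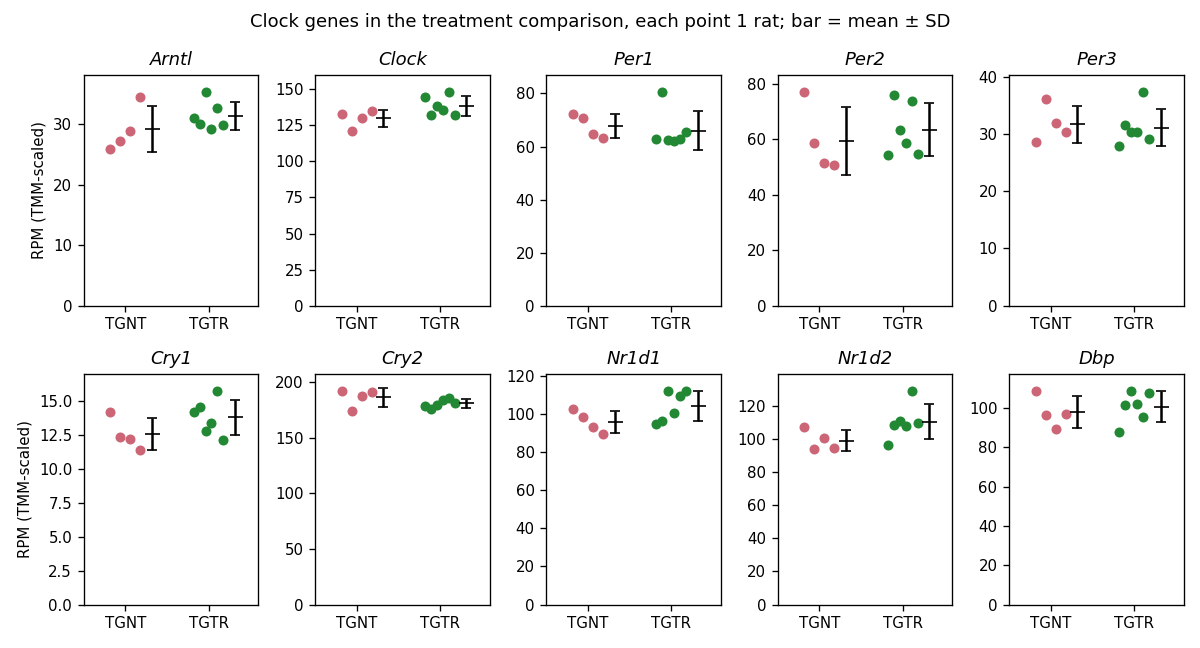
Levels of the 10 clock genes in the treatment comparison, in TMM-scaled RPM on axes that start at 0; each point is 1 rat and the bar beside each group is the mean ± SD. The groups overlap in all 10 panels, with the highest Nr1d2 point at 129 RPM in TGTR replicate 5 and the highest Per1 point at 80.6 RPM in TGTR replicate 2.

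**Figure D3:**
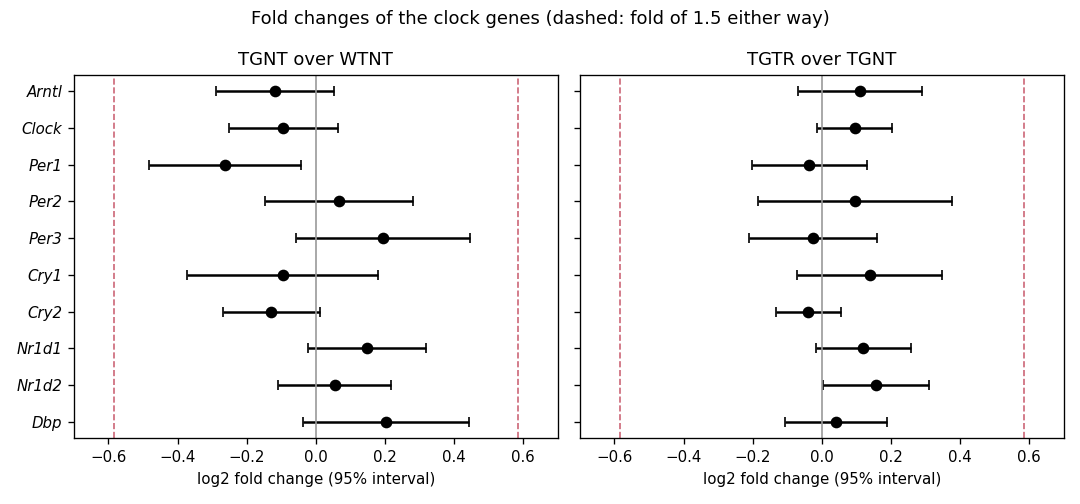
Log2 fold changes of the 10 clock genes with 95% intervals from edgeR, TGNT over WTNT on the left and TGTR over TGNT on the right; dashed lines mark a fold change of 1.5 either way. No interval reaches a dashed line, and the intervals of Per1 on the left and Nr1d2 on the right leave out 0.

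Whether the groups stood at different clock times was described with a pair of contrasts within each rat, in which library scaling nearly cancels. Axis 1 was the mean log2(RPM + 0.5) of Per1, Per2, Per3, Nr1d1, Nr1d2 and Dbp minus that of Arntl. Axis 2 was the mean of Nr1d1 and Dbp, which peak earlier, minus the mean of Per2 and Cry1, which peak later. Without the collection hours neither axis is an hour of the day, and as scores over the chosen genes they are given without a test.

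On axis 1 the WTNT rats stood at -0.10, -0.40, -0.12, -0.29 and 0.0006 and the TGNT rats at 0.27, -0.12, 0.03, -0.13 and -0.03 log2 units. The groups overlapped, and only TGNT replicates 1 and 3 lay above all WTNT rats. The means were -0.18 ± 0.16 in WTNT and 0.0040 ± 0.16 in TGNT rats (SD, n = 5 each), a difference of 0.19 ± 0.10 (SE). On axis 2 the WTNT rats were at 0.64, 0.56, 0.80, 0.84 and 0.70 and the TGNT rats at 1.24, 0.94, 0.71, 0.86 and 0.72, a difference of 0.19 ± 0.11 (SE). TGNT replicate 1 was the highest rat on both axes. Without it the differences were 0.12 on axis 1 and 0.10 on axis 2. Without Per1, which had the opposite sign, the axis 1 difference was 0.25.

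In the treatment comparison both axes differed by less than their error. Axis 1 ranged from 0.92 to 1.54 in TGNT rats and was 1.06 (lowest), 1.25 (median) and 1.34 (highest) in TGTR rats, a difference of -0.05 ± 0.12 (SE). All TGTR rats lay within the range of the untreated rats. Axis 2 was 1.65, 1.84, 1.84 and 1.92 in TGNT rats and 1.55 (lowest), 1.76 (median) and 2.07 (highest) in TGTR rats, a difference of -0.04 ± 0.12 (SE). Leaving out each rat in turn moved the axis 1 difference between -0.17 and 0.04.

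**Figure D4:**
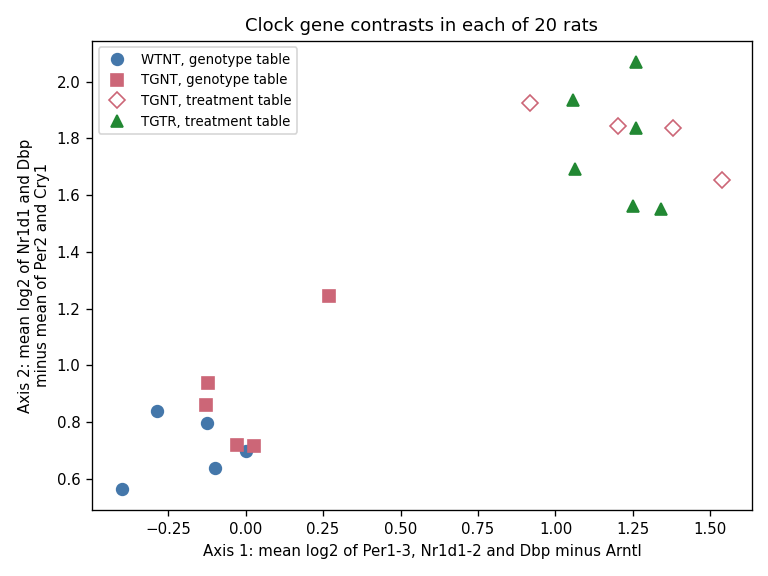
Axis 1 against axis 2, both in log2 units, for each of the 20 rats; filled circles are WTNT and filled squares TGNT rats of the genotype table, open diamonds TGNT and triangles TGTR rats of the treatment table. Groups of the same table overlap, and the rats of the treatment table lie between 0.92 and 1.54 on axis 1 while those of the genotype table lie between -0.40 and 0.27.

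The difference between the tables was far larger than that between groups of the same table. TGNT rats of the treatment table stood 1.25 log2 units higher on axis 1 and 0.92 higher on axis 2 than TGNT rats of the genotype table, though both groups are untreated, of the same strain, sex and age. Dbp was at 97.9 against 40.7 RPM, a log2 difference of 1.27, which exceeded that of 98.2% of 9629 genes in size. Per1 was at 67.8 against 32.3 RPM (1.06, more than 95.05% of genes). Per3 was at 31.7 against 17.5 RPM (0.83, more than 86.6%) and Nr1d1 at 96.1 against 58.6 RPM (0.71, more than 78.5%). Arntl stood lower, at 29.1 against 44.7 RPM (-0.62), and so did Clock, at 130 against 210 RPM (-0.69). In size these exceeded the differences of 71.5% and 76.8% of genes.

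This arrangement, with Dbp, Per1, Per3 and Nr1d1 high where Arntl and Clock are low, opposes the activators and several of their targets. Nr1d2 did not share it: it was lower in the treatment table, at 99.2 against 138 RPM (-0.47), opposite to Nr1d1. Per2 differed by 0.43, Cry1 by -0.29 and Cry2 by 0.17. The differences of Nr1d2, Per2, Cry1 and Cry2 exceeded in size those of 57.4%, 52.9%, 37.2% and 21.5% of genes. For 6 of the 10 genes all rats of the treatment table were separate from all rats of the genotype table, whatever their group. The same held for 44.3% of 9629 genes, whose median absolute difference was 0.40. The tables were normalized apart and no test was made across them, and the hour of collection, the sequencing run and everything else that differed between the tables cannot be told apart.

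Across rats of a table, with group means removed, Arntl was set against each of the other 9 genes. After adjustment over the 9 pairs none of the relations passed 0.05 in either table, and the lowest adjusted permutation p of Pearson's r was 0.643 in the genotype and 0.900 in the treatment table. The most negative was Arntl with Per1. In the genotype table r was -0.58 (permutation p = 0.106) and Spearman's rho was -0.45 (permutation p = 0.199), and r was -0.41 without the 2 rats farthest from the median of Arntl. The treatment table gave r = -0.48 (permutation p = 0.128) and rho = -0.54 (permutation p = 0.155), with r = -0.37 without the 2 farthest rats. Arntl with Dbp had r = -0.16 (permutation p = 0.673) and rho = -0.08 (permutation p = 0.842) in the genotype table, and r = -0.14 (permutation p = 0.698) and rho = -0.36 (permutation p = 0.372) in the treatment table. Without the 2 farthest rats these became -0.37 and -0.77.

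All 45 pairs of the 10 genes were then listed, a step chosen after the data were seen. One pair passed 0.05 after adjustment over the 45 pairs of its table: Nr1d1 with Nr1d2 in the genotype table, with r = 0.93 (permutation p = 7.5e-04, adjusted p = 0.03375) and rho = 0.92 (permutation p = 1.5e-04, adjusted p = 0.00675). Without the 2 farthest rats r was 0.80. In the treatment table the REV-ERB pair gave r = 0.62 (permutation p = 0.0780, adjusted p = 0.552) and rho = 0.62 (permutation p = 0.0611, adjusted p = 0.693), and r was 0.39 without the 2 farthest rats. The most negative pair was Clock with Per1 in the genotype table, with r = -0.85 (permutation p = 0.00633, adjusted p = 0.142) and rho = -0.90 (permutation p = 0.00805, adjusted p = 0.128), and r was -0.73 without the 2 farthest rats. Nr1d1 with Dbp gave similar r in both tables, 0.63 (permutation p = 0.0380, adjusted p = 0.230) and 0.65 (permutation p = 0.0632, adjusted p = 0.552), with rho of 0.68 and 0.61. Without the 2 farthest rats these r were 0.59 and 0.55.

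**Figure D5:**
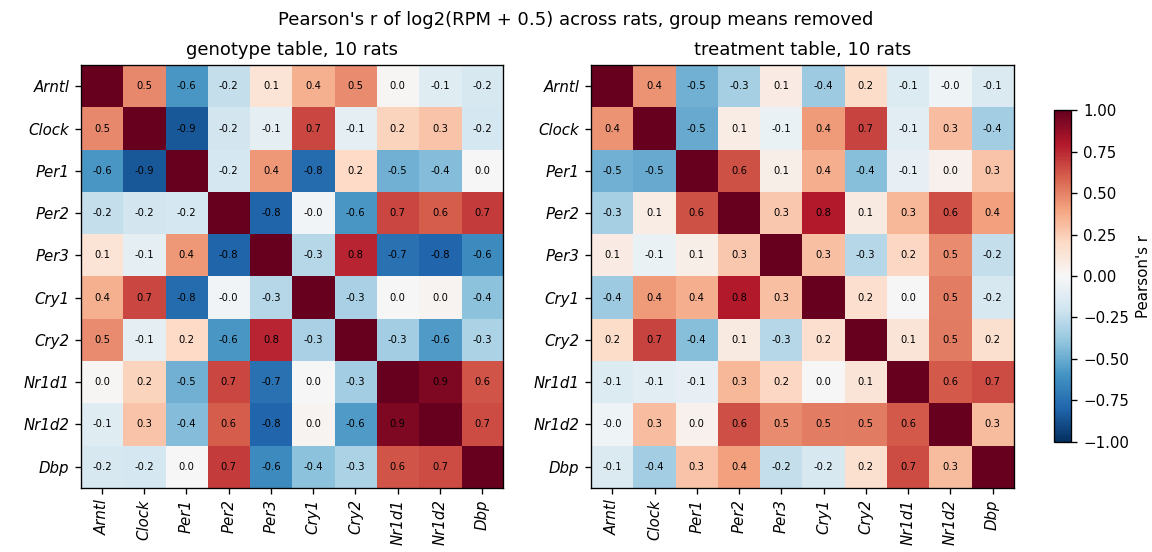
Pearson's r of log2(RPM + 0.5) between each pair of clock genes across the 10 rats of each table, group means removed; red is positive and blue negative on a scale from -1 to 1. The block of Nr1d1, Nr1d2 and Dbp is red in both panels, while Per3 with Nr1d2 is blue in the genotype panel and red in the treatment panel.

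The spread of the clock genes between rats of a group was like that of other genes. Their median within-group SD was 0.15 log2 units in the genotype and 0.12 in the treatment table, against 0.15 and 0.12 over all genes of at least 5 RPM. Of the 10 clock genes, 5 and 6 lay above the median of all genes. Cry1 and Dbp varied most in the genotype table, above 73.5% and 72.6% of genes, and Per2 in the treatment table.

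Genes outside the 10 clock genes were ranked by the likeness of their pattern across rats to axis 1 in both tables. Among 9619 such genes, with 10 rats per table and group means removed, those close to it included Kirrel3, with r = 0.80 in the genotype and 0.81 in the treatment table, the synapsin gene Syn2 (0.83 and 0.80), Synm (0.77 and 0.80), Dgkg (0.76 and 0.77) and Fosl2 (0.75 and 0.78). The most opposed were Kcnab1, a potassium channel subunit (-0.85 and -0.81), the neurotensin gene Nts (-0.85 and -0.79), Sidt1 (-0.79 and -0.93), Arhgap12 (-0.86 and -0.78), Aspa (-0.77 and -0.79) and Myo9b (-0.77 and -0.86). They were picked as extremes of many genes, so these r are a description without a p.

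Of 25 further genes of the clock pathway, 20 were in the tables, Ciart and Cipc under their locus symbols, and the other 5 were not analysed here. In edgeR's quasi-likelihood test 0 of the 20 were called in either comparison. In TGNT against WTNT rats 12 were higher and 8 lower, with a median log2 fold change of 0.02. The lowest p belonged to Tipin, a replication fork protein that partners Timeless, at 9.06 ± 1.05 RPM in WTNT and 11.9 ± 2.2 RPM in TGNT rats (SD, n = 5 each), with a log2 fold change of 0.41, an unadjusted p of 0.0116 and an adjusted p of 1 in edgeR. Nfil3, the repressor at D-boxes that opposes Dbp, had a log2 fold change of -0.32 and Ciart, a repressor of the activator pair, one of 0.42. Tipin was the 1 gene of the 20 at an unadjusted p under 0.05.

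Of those 20 genes, 16 were higher and 4 lower in TGTR than in TGNT rats (median log2 fold change 0.08), and 4 were higher at an unadjusted p under 0.05. Without TGTR replicate 5 the counts were again 16 and 4, with 5 genes at that threshold. Bhlhe40 (DEC1), which competes with the activator pair at E-boxes and also answers to neuronal activity, was at 63.2 ± 7.09 RPM in TGNT (SD, n = 4) and 76.8 ± 5.17 RPM in TGTR rats (SD, n = 6). Its log2 fold change was 0.29 ± 0.0732 (SE), with an unadjusted p of 0.00186 and an adjusted p of 0.871 in edgeR's quasi-likelihood test. Nfil3 had a log2 fold change of 0.35 and Btrc, a subunit of the ubiquitin ligase that marks the Per proteins, one of 0.13. The sign of Nfil3 was the opposite of that in the genotype comparison. The comparisons hold different rats in tables normalized apart, and that contrast was not tested.

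Marker lists of the cell types in the tissue gave 0 called genes in edgeR's quasi-likelihood test in both comparisons, and 0 markers were at 0 in all rats. In TGNT against WTNT rats the 5 oligodendrocyte markers were all lower (median log2 fold change -0.27), with levels that overlapped (8.36 to 9.49 and 8.33 to 9.07 log2 units), and the 5 microglial markers were all higher, with a median of 0.06. In TGTR against TGNT rats the 5 endothelial markers were all higher (median 0.11) and so were the 5 oligodendrocyte markers (median 0.23) and the 7 choroid plexus markers (median 2.95). Without TGTR replicate 5, a setting added after the data were seen, 5 choroid plexus markers were higher and 2 lower (median 0.51). TGTR replicate 6 stayed in that setting. The endothelial and oligodendrocyte markers were all still higher there (medians 0.11 and 0.27). The neuronal, astrocyte, microglial and hippocampal field markers had medians of -0.0082, 0.010, 0.0016 and 0.050 without that rat. With all rats, in the genotype and then the treatment comparison, neuronal markers had medians of -0.03 and -0.04, the astrocyte markers of 0.03 and -0.01, and the markers of hippocampal fields of -0.16 and -0.05. The part of cell composition in the clock gene values was not tested.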

How the data were processed

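Hippocampal mRNA was sequenced as 1 stranded poly(A) library per rat. Per the labels, bcl2fastq 2.17, Bowtie2 2.1.0, RSEM 1.2.15 and edgeR were used with build rn6, and the strand setting of the counting is not given in the sources used here. The authors deposited estimated counts per gene symbol, not normalized, and a signal in RPM scaled with TMM factors, with separate tables for each comparison. Totals of 5848458 to 14175594 counts per rat limit the precision of weakly expressed genes. Each replicate was a separate rat, so p-values measure the spread between rats. All columns matched a sample by title, and 0 columns were left without a sample.

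Estimated counts were rounded and all 17168 genes of a table were fitted with edgeR 4.0.16 (TMM, quasi-likelihood test, no filter, two-sided) in R 4.3.3, with Benjamini-Hochberg adjustment over all genes. A call needed a fold change of 1.5 or more and an adjusted p under 0.05. The fit was tested on simulated data. Exact permutation tests of mean RPM used all arrangements of the rats, and correlations of log2(RPM + 0.5) used 100000 shuffles of rats within groups (two-sided). Promoter windows came from RefSeq with their GRCr8 coordinates. The counts were made on another build, and no coordinates of the counted gene models are given.

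By rule, the text names the 10 clock genes, the 3 further pathway genes with the lowest p in each comparison, App, the 3 genes with the lowest p in the activity and glucocorticoid lists, and the 6 highest and 6 lowest genes by r with axis 1 among those with a mean of at least 5 RPM. Any other gene was chosen after its values were seen. A gene that this rule picks by r with axis 1 is not reported here. The clock genes and all lists were chosen with earlier results of these data known. The alternatives were DESeq2 1.42.0, edgeR's exact test, limma-trend (limma 3.58.1), other normalizations, filterByExpr, other thresholds and pseudocounts, a replicate block and leaving out each rat. Lists without TGTR replicate 5 and list genes called in the other settings were added after the data were seen.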

Additional observations from a re-analysis of the deposited data

Results flagged for a closer look

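Of 48 groups of 4 to 6 rats examined for a single rat far from the rest, 2 were flagged, and chance alone would flag about 2.4. Both concern Per1. In the genotype comparison WTNT replicate 1 stood at 48.2 RPM, far above the other WTNT rats at 35.8 to 37.7 RPM. That rat also had the highest mean log2 level of the glucocorticoid-driven list, at 5.37, and of the activity-driven list, at 4.29, in its table. In the treatment comparison TGTR replicate 2 stood at 80.6 RPM, above the other TGTR rats at 61.9 to 65.3 RPM. Its levels of the same lists, 5.09 and 4.24, lay within the range of the other TGTR rats.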

How the results depend on the processing

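In every setting run, 0 clock genes and 0 further pathway genes were called in either comparison, and 0 clock genes were called at an adjusted p under 0.1 without a fold change threshold. The number of clock genes at an unadjusted p under 0.05 was less stable. In the genotype comparison it was 1 and became 2 with DESeq2 and 2 with limma-trend (Per1 and Cry2 each time), and it ranged from 0 to 3 when each rat was left out in turn, with 0 without WTNT replicate 1, TGNT replicate 4 or TGNT replicate 5 and 3 without WTNT replicate 3 or 5. In the treatment comparison it was 1 and became 0 with the exact test, limma-trend, upper quartile factors or filterByExpr and 3 with library size only, and ranged from 0 to 3 when each rat was left out, with 3 without TGNT replicate 1, 2 without TGTR replicate 1 and 0 without TGNT replicates 2 or 3 or TGTR replicates 3, 4, 5 or 6. Library size only also turned Per1 (0.0015) and Per3 (0.015) upwards. Leaving out each rat moved the log2 fold change of Per3 between -0.081 and 0.038 and that of Dbp between -0.0021 and 0.096. Without the 2 farthest rats, r of Arntl with Nr1d1 turned to -0.54 in the genotype table, and with Cry1, Cry2 and Nr1d2 to 0.20, -0.0040 and 0.26 in the treatment table. The cause was not tested, other than fewer rats.

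The sources used here state no pairing of same-numbered rats. Their deviations correlated at -0.20 to 0.32 in the genotype and -0.55 to 0.12 in the treatment comparison. WTNT replicates 1 and 3 correlated most with the TGNT rat of their own number, while the remaining replicates of either comparison did not match best with theirs. With the replicate block the number of clock genes at an unadjusted p under 0.05 was 1 and 0, and genes of the whole table at that threshold went from 554 to 553 and from 843 to 409. The clock gene at that threshold in the genotype comparison was Per1, with a log2 fold change of -0.26. Its unadjusted p in edgeR's quasi-likelihood test was 0.00917 with the block and 0.0226 without it. TGTR replicates 5 and 6 have no same-numbered TGNT rat, so with the block they did not enter the difference between treatment groups. The 1 gene called with the block in the treatment comparison was the choroid plexus marker Ttr, at a log2 fold change of -2.56. In the main fit, with all rats, the log2 fold change of Ttr was 6.05, with an adjusted p of 0.964 in edgeR's quasi-likelihood test. Few rats, no collection hour and 1 time of sampling per rat limit what can be read about the clock.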
